A study of Mus musculus with 10 samples.

Results

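Reactive astrocyte genes were followed in bulk RNA-Seq of mouse brains that lack Snx14, a gene for a sorting nexin of the endoplasmic reticulum with a role in lipid storage. The 10 genes are Gfap, Vim, Serpina3n, Osmr, Cd44, Lcn2, Steap4, S1pr3, Timp1 and Aspg, which were chosen by name as transcripts that reactive astrocytes are known to make, and all 10 were found by symbol among the 55536 mouse genes of the count tables. Cerebellar and cortical RNA came from the same 5 mice at 1 year of age. Snx14-KO mice (KO 1 and KO 2) carry a homozygous 1 bp frameshift deletion in every cell of the body. The controls were 2 Het mice (controls 1 and 2), which carry 1 copy of the deletion, and 1 WT mouse (control 3), and so a difference between KO and control is a difference from a mostly heterozygous group. KO mice that reach adulthood are the survivors of a partial embryonic lethality, according to the study.

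Astrocytes are the star-shaped glia that take up glutamate, buffer potassium and contact blood vessels. After injury, inflammation or loss of neurons they become reactive: they enlarge, fill with the intermediate filaments GFAP and vimentin, and secrete protease inhibitors, lipocalin and matrix regulators. A main route to this state runs through cytokines of the interleukin-6 family, whose receptors share the gp130 subunit and act through JAK kinases and the transcription factor STAT3. In the cerebellum the astrocytes include the Bergmann glia, whose processes ensheath Purkinje cells, and velate and fibrous astrocytes.

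The promoters of the 3 genes that were called in KO cerebellum are shown so that their sequences can be read. No promoter sequence entered a test of the counts. Each stretch is 280 bases of RefSeq sequence on GRCm38.p6, from 250 bases before the annotated start to 30 bases after it, written 5′ to 3′ on the strand of the gene, with the motif matches in capitals. For Gfap and Lcn2 the RefSeq start lies inside a longer GENCODE gene.
Gfap, chr11:102897171-102897450, minus strand: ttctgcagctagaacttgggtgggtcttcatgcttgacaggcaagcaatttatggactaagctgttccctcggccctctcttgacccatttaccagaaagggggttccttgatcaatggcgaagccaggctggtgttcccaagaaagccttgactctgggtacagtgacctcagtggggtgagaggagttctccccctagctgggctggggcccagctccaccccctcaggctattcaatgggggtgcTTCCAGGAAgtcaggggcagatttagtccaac
Serpina3n, chr12:104406458-104406737, plus strand: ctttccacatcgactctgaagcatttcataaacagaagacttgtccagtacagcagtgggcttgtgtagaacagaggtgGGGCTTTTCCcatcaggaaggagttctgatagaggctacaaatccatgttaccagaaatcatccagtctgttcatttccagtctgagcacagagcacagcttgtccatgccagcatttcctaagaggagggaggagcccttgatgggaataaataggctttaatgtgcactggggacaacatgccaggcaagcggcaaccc
Lcn2, chr2:32387710-32387989, minus strand: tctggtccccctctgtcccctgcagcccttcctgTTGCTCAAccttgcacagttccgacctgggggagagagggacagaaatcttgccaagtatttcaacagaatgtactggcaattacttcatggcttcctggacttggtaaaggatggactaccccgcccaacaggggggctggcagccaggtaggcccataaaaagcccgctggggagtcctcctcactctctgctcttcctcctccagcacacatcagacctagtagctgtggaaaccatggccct

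Windows of 300 bases, which run on past the end of the printed stretches, were searched on both strands for the letter patterns of 4 kinds of factor named in astrocyte reactivity. The capitals in Gfap are TTCCAGGAA, a match to the STAT pattern TTCNNNGAA that spans the start site. Steap4 held the only other match to it among the 10 genes, and 8.30% of all 32851 windows held one. The capitals in Serpina3n match the NF-kB pattern, GGG and TTTCC with any 2 bases between them, which was also found in Vim and Steap4 and in 1.63% of all windows. Those in Lcn2 match the C/EBP pattern TTGCNNAA, found also in Steap4 and in 10.8% of all windows. A loose AP-1 pattern, TGANTCA with any base in the middle, was found in Osmr as TGATTCA and in 7.81% of all windows. The matches in Steap4, the only gene with more than 1, did not overlap each other. A match says that the letters are present in the window and nothing about binding.

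Library totals lay between 16088310 and 22975355 gene counts. Control 2 stood apart from the other controls in both tissues: the chi-square statistic of its counts per degree of freedom against them was 14.0 to 31.7, compared with 4.41 and 5.12 between controls 1 and 3. The KO cerebella also differed from each other (13.3), more than the KO cortices did (5.56). Levels are given as counts-per-million (CPM) values scaled by TMM over all 10 libraries. Snx14 was at 42.8 and 39.9 CPM in the Het cerebella, at 73.2 CPM in the WT cerebellum, and at 15.5 and 17.4 CPM in the KO cerebella. The Het cortices held 34.3 and 34.9 CPM, the WT cortex 50.8 CPM, and the KO cortices 14.8 and 16.1 CPM. The targeted gene was thus lowest in the KO libraries of each tissue, and its log2 change was -1.66 in cerebellum (SE 0.256, edgeR quasi-likelihood adjusted p = 0.0140) and -1.36 in cortex (SE 0.192, adjusted p = 0.754, not called). Homeostatic astrocyte markers were present in all libraries, and no gene of that list was at 0 in any group. Because the tissue was bulk, a larger number of astrocytes and more RNA per astrocyte cannot be told apart.

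In Snx14-KO cerebella Gfap and Serpina3n rose, with mean levels 2.48-fold and 2.60-fold those of the controls. Lcn2 was called as well, at 5.97-fold, but on few counts. The other 7 reactive astrocyte genes had positive changes that were not called. All 10 passed the filter on low counts, and 3 of the 10 were called higher (edgeR quasi-likelihood test with an adjusted p under 0.05, and a log2 fold change past 0.5 in size), against 0.514% of the 19447 genes tested called higher. Each of the 10 had a positive log2 fold change, with a median of 0.82 and a range from 0.21 to 2.53. The median of all tested genes was 0.000899, and 50.2% of them were positive. In 8 of the 10 both KO libraries lay above all 3 controls, a pattern that 15.4% of all tested genes showed. The exceptions were Vim and S1pr3. Lcn2 and Steap4 passed the filter only with the help of the KO libraries. Both enter the count of 8, the count of positive changes and the median. Lcn2 is also among the 3 called and sets the top of the range. Since the 10 genes were chosen with earlier results of these data known, these shares are a description. Unadjusted p was under 0.05 for 6 of the 10, Lcn2 included, and for 2611 of the 19447 genes tested. Summed over the 10 genes, the level was 364 to 428 CPM in control cerebella and 727 to 754 CPM in KO cerebella, of which Gfap and Vim made up 94.1% to 95.1% in each library.

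**Figure D1:**
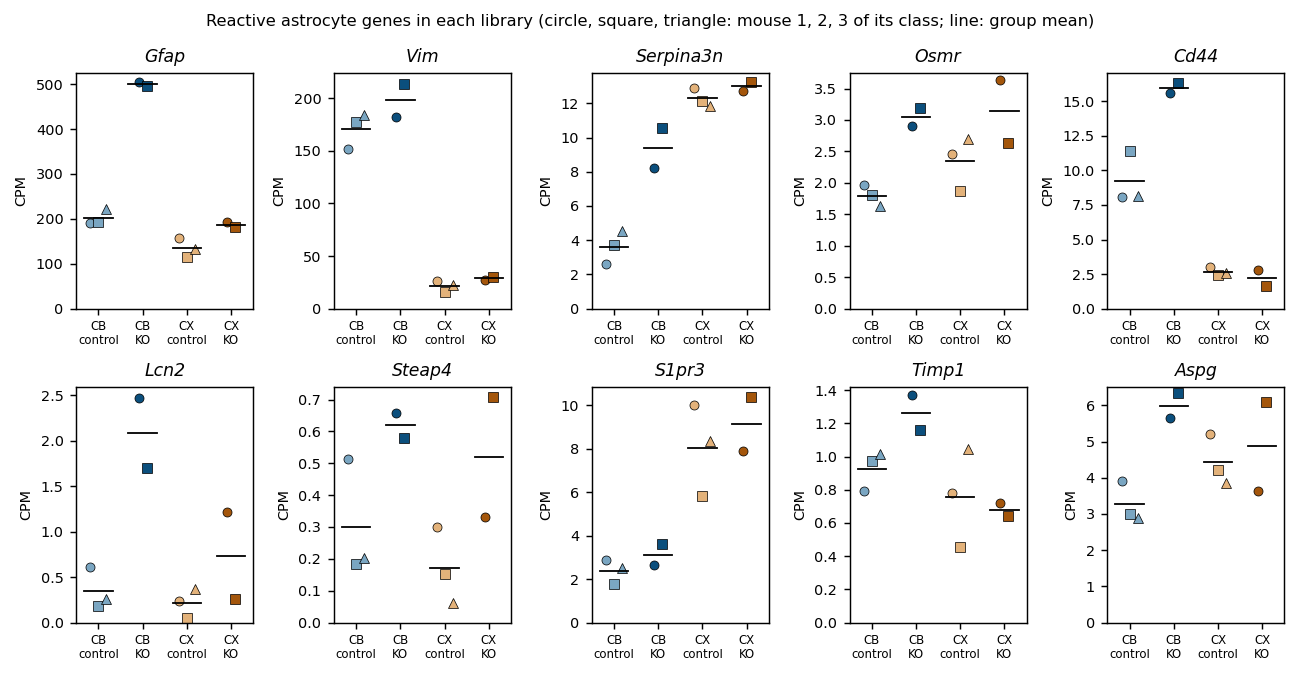
Level of each reactive astrocyte gene (CPM, linear axis from 0) in the 10 libraries, by tissue (CB cerebellum, CX cortex) and genotype; each point is 1 mouse and each line the group mean of 3 controls or 2 KO mice. Gfap sits at 496 and 505 CPM in the KO cerebella, above 190 to 223 CPM in the controls, while Serpina3n is higher in every cortex than in any cerebellum.

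The intermediate filament genes behaved differently from each other. Gfap, the filament protein that defines reactive astrocytes in most stains (ENSMUSG00000020932.14, chr11:102887336-102900912, minus strand, GRCm38), was at 190, 193 and 223 CPM in control cerebella 1 to 3 and at 505 and 496 CPM in the KO cerebella. Both KO values lay close together and above every control. The control mean was 202 ± 18.3 CPM (SD, n = 3) and the KO mean 501 ± 6.16 CPM (SD, n = 2). Gfap thus rose by a log2 fold change of 1.30 (SE 0.0856, adjusted p = 0.000444), and it stayed called with each library left out in turn. Vim, which encodes vimentin and is made by endothelial cells, fibroblasts and Bergmann glia as well, was at 152, 177 and 184 CPM in the controls and 183 and 214 CPM in the KO mice. KO 1 fell among the controls, and the log2 fold change was 0.21 (SE 0.100, adjusted p = 0.440).

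Among the secreted proteins, Serpina3n, an inhibitor of serine proteases (ENSMUSG00000021091.8, chr12:104406729-104414329, plus strand), was at 2.61, 3.70 and 4.52 CPM in the control cerebella and 8.23 and 10.6 CPM in the KO cerebella. The groups did not overlap, and the mean rose 2.60-fold (log2 1.38, SE 0.235, adjusted p = 0.0220). That call did not hold without control 1, KO 1 or KO 2 (adjusted p = 0.0844, 0.0535 and 0.130), and the adjusted p ranged from 4.94e-09 to 0.130 over all alternatives. Serpina3n belongs to a cluster of closely similar genes, and read pairs that map to several of them were not counted, so its level is uncertain to that extent. Timp1, an inhibitor of matrix metalloproteinases, was low, with 17, 21 and 20 counts in the controls and 25 and 28 counts in the KO mice. Its KO libraries lay above the controls by a small margin, and the log2 fold change of 0.43 was not called (SE 0.310, adjusted p = 0.636).

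Lcn2, which encodes lipocalin-2, a secreted protein that binds iron-carrying siderophores and is stored in neutrophil granules (ENSMUSG00000026822.14, chr2:32384633-32388252, minus strand), had the largest fold change of the 10 genes and one of the lowest levels. The control cerebella held 13, 4 and 5 counts and the KO cerebella 45 and 41 counts. These are 0.607, 0.185 and 0.254 CPM against 2.47 and 1.70 CPM, so every KO library lay above every control. The log2 fold change was 2.53 (SE 0.463, adjusted p = 0.0306). It was not called without control 3, KO 1 or KO 2 (adjusted p = 0.127, 0.175 and 0.0703), and DESeq2 gave it no adjusted p. Over the alternatives that gave one it ranged from 5.19e-08 to 0.175. The log2 fold change itself was 3.20 without control 1, the highest control, and 2.22 without control 2. Lcn2 and Steap4 passed the filter through both KO libraries and control 1. The controls alone would not have passed it, so that the Lcn2 call adds nothing to its counts.

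As a sum, neutrophil genes were higher in the KO libraries of both tissues than in the controls. The summed level of 6 of them (S100a8, S100a9, Ngp, Camp, Ltf and Mpo) was 1.82, 2.77 and 1.02 CPM in control cerebella and 6.75 and 15.5 CPM in KO cerebella, and 0.599, 0.354 and 0.552 CPM in control cortices and 1.44 and 5.14 CPM in KO cortices. Ngp and Ltf, named after their values were seen, encode granule proteins and were called higher (log2 3.26 and 3.42, adjusted p = 0.0114 and 0.0436). Ngp held 6, 6 and 5 counts in control cerebella and 27 and 91 counts in KO cerebella, and Ltf 6, 0 and 6 against 25 and 68. Both passed the filter only through the KO libraries, so that their calls add nothing to these counts. No gene of the list was at 0 throughout any group. KO 2 held more of the neutrophil genes than KO 1 in both tissues, while KO 1 held more Lcn2 CPM than KO 2 in both. The part of neutrophils in the Lcn2 result was not tested.

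**Figure D2:**
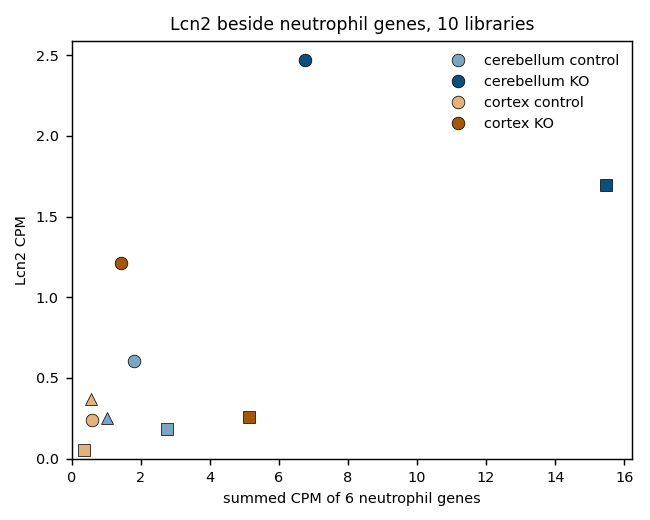
Lcn2 level (CPM, y axis) against the summed level of 6 neutrophil genes (CPM, x axis) in the 10 libraries, coloured by tissue and genotype, with circles, squares and triangles for mouse 1, 2 and 3 of its class. Both KO cerebella lie to the right of and above the control cerebella, and KO 1 has more Lcn2 (2.47 CPM) at a lower neutrophil sum (6.75 CPM) than KO 2 (1.70 at 15.5 CPM).

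None of the receptor genes was called. Cd44, the cell surface receptor for hyaluronan and osteopontin, was at 8.07, 11.4 and 8.18 CPM in control cerebella and 15.6 and 16.3 CPM in KO cerebella. Control 2 was the highest control, and both KO libraries lay above it. The log2 fold change was 0.78 (SE 0.171, adjusted p = 0.0637), not called, whereas without control 2 it was 0.97 (adjusted p = 0.00752) and DESeq2 on all 5 libraries gave an adjusted p of 0.00480. Over all alternatives the adjusted p of Cd44 ran from 0.000118 to 0.250. Osmr, the signalling subunit that pairs with gp130 to bind oncostatin M, was at 1.96, 1.80 and 1.63 CPM in the controls and 2.91 and 3.19 CPM in the KO mice. The groups did not overlap, but the log2 fold change of 0.75 was not called (SE 0.219, adjusted p = 0.161). S1pr3, a G protein-coupled receptor for sphingosine-1-phosphate, was at 2.89, 1.76 and 2.49 CPM against 2.63 and 3.60 CPM, with KO 1 among the controls (log2 0.39, SE 0.271, adjusted p = 0.624).

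Of the enzymes, Aspg, an asparaginase, was at 3.92, 3.01 and 2.90 CPM in control cerebella and 5.65 and 6.33 CPM in KO cerebella. Its libraries did not overlap, and the log2 fold change of 0.86 was not called (SE 0.196, adjusted p = 0.0715). Steap4, a metalloreductase that reduces iron and copper, held 11, 4 and 4 counts in the controls and 12 and 14 counts in the KO mice. Control 1 came within 1 count of KO 1, and the log2 fold change of 1.01 carried an SE of 0.551 (adjusted p = 0.505).

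**Figure D3:**
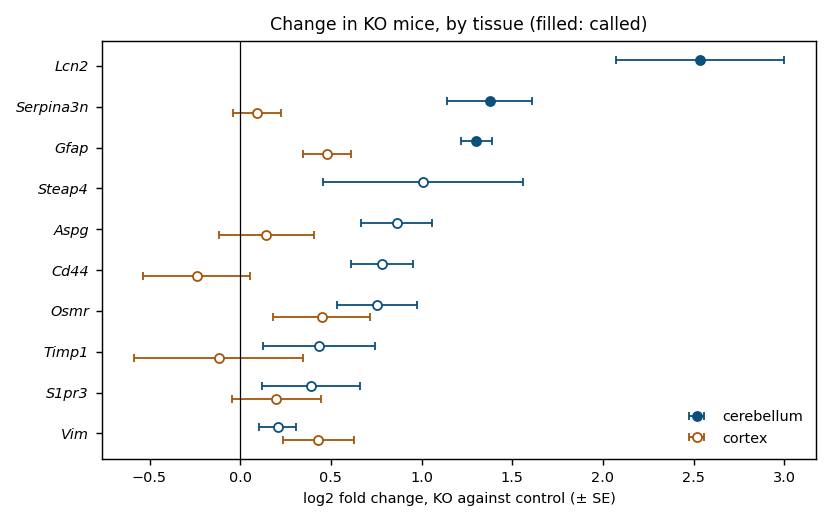
Log2 fold change of KO against control (x axis, with bars of 1 SE) for each gene in cerebellum and cortex; filled points were called. In cerebellum all 10 points lie to the right of 0 and Lcn2, Serpina3n and Gfap are filled, while in cortex the 8 points run from -0.24 to 0.48 and none is filled; Lcn2 and Steap4 were not tested in cortex.

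In KO cortices none of the 10 genes was called, nor was any other gene tested, Snx14 included (edgeR adjusted p = 0.754). The absence of a call in cortex is therefore no sign that a gene was unchanged. Gfap was at 158, 116 and 132 CPM in the control cortices and 192 and 181 CPM in the KO cortices, so both KO values were above all controls, by less than in cerebellum. Its log2 fold change was 0.48 (SE 0.132, edgeR adjusted p = 0.754, unadjusted p = 0.00720). Without control 2, the lowest of the 3 controls, the value was 0.38 with an adjusted p of 0.0464, below the fold threshold, and over all alternatives the adjusted p ran from 0.00413 to 0.999. Vim was at 26.3, 16.1 and 22.7 CPM in the controls and 27.6 and 30.3 CPM in the KO mice, again without overlap (log2 0.43, SE 0.196, adjusted p = 0.861).

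Serpina3n was at 12.9, 12.2 and 11.8 CPM in the controls and 12.8 and 13.2 CPM in the KO mice, and the groups overlapped (log2 0.09, SE 0.132, adjusted p = 0.934). Osmr was at 2.46, 1.87 and 2.70 CPM against 3.64 and 2.63 CPM, with KO 2 among the controls (log2 0.45, SE 0.266, adjusted p = 0.886). Cd44 was at 2.99, 2.43 and 2.58 CPM against 2.82 and 1.61 CPM, the only member besides Timp1 with a negative value (log2 -0.24, SE 0.296, adjusted p = 0.925). The KO mice differed from each other here, KO 2 lying below and KO 1 within the controls. S1pr3 was at 10, 5.82 and 8.34 CPM in the controls and 7.89 and 10.4 CPM in the KO mice (log2 0.20, adjusted p = 0.926). Aspg was at 5.21, 4.20 and 3.87 CPM against 3.64 and 6.10 CPM (log2 0.14, adjusted p = 0.953). Timp1 held 13, 9 and 17 counts against 13 and 10 counts (log2 -0.12, adjusted p = 0.976). All 3 overlapped between the groups, and for Aspg the KO mice lay on either side of the controls. Lcn2 held 4, 1 and 6 counts in the control cortices and 22 and 4 counts in the KO cortices, so that KO 1 alone was high, and Steap4 held 5, 3 and 1 counts against 6 and 11 (at most 0.299 CPM in controls, 0.331 and 0.707 CPM in KO mice). Both genes were below the filter and were not tested.

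Over the 8 genes tested in cortex, 0 were called by edgeR and 0 by DESeq2. Of the 19202 genes tested, edgeR called 0.0% in either direction. Its unadjusted p was under 0.05 for 1 of the 8 and for 1139 of the 19202. Positive values were found for 6 of the 8, with a median of 0.17, and for 50.2% of all genes tested. Gfap and Vim were the 2 of the 8 with both KO libraries above all controls, against 10.5% of all tested genes. Striatal genes moved with genotype in cortex: the summed level of 8 of them was 1440 to 3727 CPM in controls, highest in control 2, and 413 to 885 CPM in KO mice. Endothelial genes were at 132 to 226 CPM in control cortices and 224 to 254 CPM in KO cortices. How far such marker levels bear on Gfap and Vim was not tested.

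The difference between the KO effects of the tissues was tested itself, in 1 fit of all 10 libraries. None of the 10 genes passed an adjusted p under 0.05 (edgeR), and 0.102% of the 20614 genes tested were called. The unadjusted p was under 0.05 for 3 of the 10 (Gfap, Serpina3n and Cd44) and for 1706 of the 20614. For Gfap the effect was larger in cerebellum by 0.85 on the log2 scale (SE 0.171, adjusted p = 0.126). The tissues came from the same mice, and with the mouse as a block the value was 0.84 with an adjusted p of 0.0331, past the threshold. Without the cortex library of control 2 it was 0.93 (adjusted p = 0.0156), and DESeq2 gave 0.83 (adjusted p = 0.00230), with adjusted p-values from 2.77e-06 to 0.539 over all alternatives. For Serpina3n the difference was 1.30 (SE 0.281, adjusted p = 0.141), and DESeq2 gave 1.29 with an adjusted p of 0.00509, in a range from 0.000532 to 0.539. Cd44 differed by 1.04 (SE 0.335, adjusted p = 0.366). The other 7 ran from -0.53 for Steap4 to 0.74 for Aspg and Lcn2, with adjusted p-values of 0.618 or more. The Lcn2 value rests on few cortical counts and ran from 0.05 to 2.27 over the alternatives, the highest without the cortex library of KO 1. The tissue difference was a call for Gfap in some fits and not in others, and for Vim and Osmr, at -0.20 and 0.33, the SEs of 0.234 and 0.330 leave room for a difference in either direction.

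Some of the 10 genes differed by region in control mice, about as often as genes in general did. Against control cortex, 3 of the 10 genes were called higher in control cerebellum and 2 lower, near the 19.2% and 21.8% of all 20614 tested genes. Vim was 7.89-fold higher in cerebellum, at 171 ± 16.7 against 21.7 ± 5.17 CPM (SD, n = 3 each; log2 2.98, SE 0.157, adjusted p = 4.68e-08). Cd44 was 3.45-fold higher, at 9.21 ± 1.87 against 2.67 ± 0.293 CPM (log2 1.79, adjusted p = 2.99e-05). Gfap was 1.49-fold higher, at 202 ± 18.3 against 135 ± 21.0 CPM (log2 0.58, adjusted p = 0.000925). That call did not hold without the cortex library of control 2, where the log2 difference was 0.46, below the fold threshold.

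Serpina3n and S1pr3 lay the other way. Serpina3n was 3.40-fold higher in cortex, at 12.3 ± 0.531 against 3.61 ± 0.958 CPM (log2 -1.77 for cerebellum against cortex, adjusted p = 1.19e-05), and S1pr3 3.38-fold, at 8.06 ± 2.10 against 2.38 ± 0.576 CPM (log2 -1.75, adjusted p = 0.000143). Control libraries of the regions did not overlap for these 5 genes. All control cerebella lay above all control cortices for 30.6% of the genes tested, and below them for 30.2%, so such a lack of overlap was common. Even in KO mice the cerebellar Serpina3n level stayed below the cortical one, with a ratio of cerebellum to cortex of 0.723 in KO mice and 0.294 in controls. For Cd44 the same ratio was 3.45 in controls and 7.21 in KO mice. Osmr, Aspg, Timp1, Lcn2 and Steap4 overlapped between regions and were not called (adjusted p = 0.120 to 0.473).

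**Figure D4:**
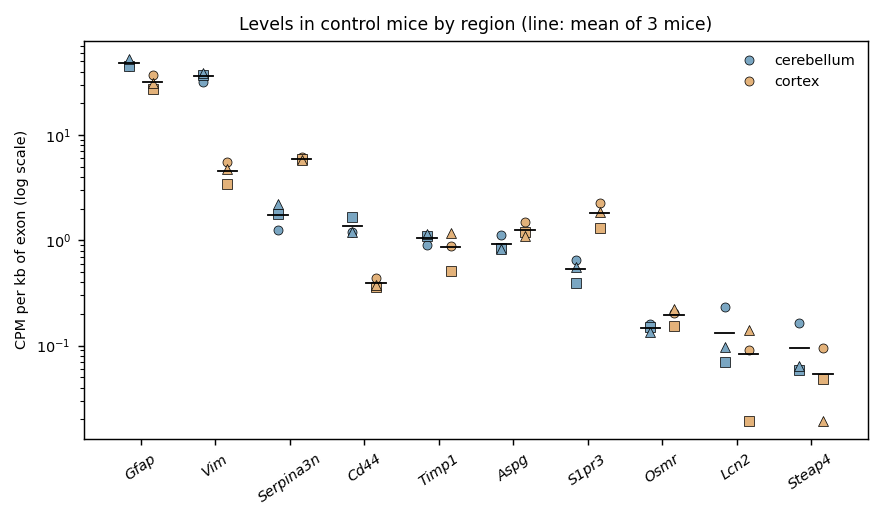
Level of each gene per kb of exon (CPM per kb, log axis) in the 3 control cerebella and the 3 control cortices; points are mice and lines are means. Vim and Cd44 are higher in cerebellum, Serpina3n and S1pr3 higher in cortex, and the means span from 47.8 for cerebellar Gfap to 0.0542 for cortical Steap4.

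Per kb of exon, the order of levels among the genes also differed by region. In control cerebellum Gfap (47.8 CPM per kb) and Vim (36.1) led, and the next, Serpina3n (1.75) and Cd44 (1.36), overlapped with each other. Timp1 (1.04) and Aspg (0.930) overlapped too, S1pr3 followed at 0.533, and Osmr (0.148), Lcn2 (0.133) and Steap4 (0.0953) could not be ordered beyond their spread. In control cortex Gfap (32.1) was followed by Serpina3n (5.95) and Vim (4.58), then by S1pr3 (1.81), Aspg (1.26) and Timp1 (0.855), neighbours that overlapped, by Cd44 (0.394) and Osmr (0.193), and last by Lcn2 (0.0837) and Steap4 (0.0542), which overlapped.

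Across the 10 libraries, after each tissue mean was subtracted, the log2 CPM pattern most like that of Gfap among 17430 genes belonged to Ttyh1 (Pearson r 0.983), followed by Glul (0.980), which encodes glutamine synthetase, Acsl3 (0.975), Clu (0.968), which encodes clusterin, and Tmie (0.965). Of the other reactive astrocyte genes that entered this comparison, Serpina3n (0.904), Osmr (0.868), Aspg (0.768), Cd44 (0.660), Vim (0.611) and S1pr3 (0.565) all had positive r with Gfap. For Serpina3n the nearest patterns were those of Elavl2 (0.973), an RNA-binding protein of neurons, Ank (0.958), Tgfbi (0.955), Plcl1 (0.954) and Tmem196 (0.951). The points are 5 mice seen in both tissues and share the KO-control difference, so these r values are a description.

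Genes around the 10 were examined through lists drawn up by function, with earlier results of these data known, as for the 10 genes themselves. In cerebellum 50.2% of all genes tested had a positive change, the share to set beside each list. Of the other pan-reactive astrocyte genes, 0 of 3 were called in cerebellum and all 3 were positive, with ceruloplasmin (Cp) at log2 0.67 (adjusted p = 0.0670) and Hspb1 at 0.61 (adjusted p = 0.492). Among genes named for the neuroinflammatory (A1) state of astrocytes 0 of 12 were called and 9 were positive, with a median of 0.19. H2-D1, a class I histocompatibility gene of that list with closely similar relatives, was at -0.42 (adjusted p = 0.0185), under the fold threshold, and Fkbp5 at 0.62 (adjusted p = 0.645). Of the ischaemic (A2) genes, 1 of 10 tested was called, and it fell: B3gnt5, a glycolipid-synthesizing transferase, went from 28.9 to 13.3 CPM (log2 -1.13, SE 0.106, adjusted p = 0.00167). In control cortex B3gnt5 was at 0.935 CPM. The cells that its fall came from cannot be told in bulk tissue. The medians of the A1 and A2 lists, 0.19 and 0.16, were below the 0.82 of the 10 genes, a difference that was not tested. The 0.82 includes Lcn2 and Steap4, which passed the filter only with the help of the KO libraries.

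Of the gp130, JAK and STAT3 genes 14 of 17 were tested in cerebellum, 11 were positive (median 0.24) and 1 was called. This was Cntfr, the ligand-binding receptor subunit for ciliary neurotrophic factor, which rose from 107 to 175 CPM (log2 0.70, SE 0.0771, adjusted p = 0.00364). Among CD44 ligand and hyaluronan genes 1 of 7 tested was called: Spp1, which encodes osteopontin, rose from 19.9 to 45.0 CPM (log2 1.18, SE 0.218, adjusted p = 0.0330). No gene was called among the filament and linker genes (9 tested, median 0.18), the sphingosine-1-phosphate genes (8, 0.06), the TIMP1 partners (7, 0.26), the lipocalin-2 receptors (2, 0.50) or the other STEAP reductases (3, -0.49). In log2 fold change the best expressed genes of these lists were at Dst 0.05 and Nefm 0.39, S1pr1 0.13 and Sphk2 -0.02, Timp4 -0.02 and Timp2 0.42, Slc22a17 0.08 and Lrp2 0.91 (adjusted p = 0.725), and Steap2 -0.61 (adjusted p = 0.0744) and Steap3 0.70 (adjusted p = 0.478). Over all related lists 74 of 83 genes were tested in cerebellum, of which 3 were called, 18 had an unadjusted p under 0.05 and DESeq2 called 6 (Cp, Fbln5 and Steap2 in addition), where 1.55% of all genes were called in either direction. In cortex 0 of 71 were called by edgeR and 0 by DESeq2, and 4 had an unadjusted p under 0.05.

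**Figure D5:**
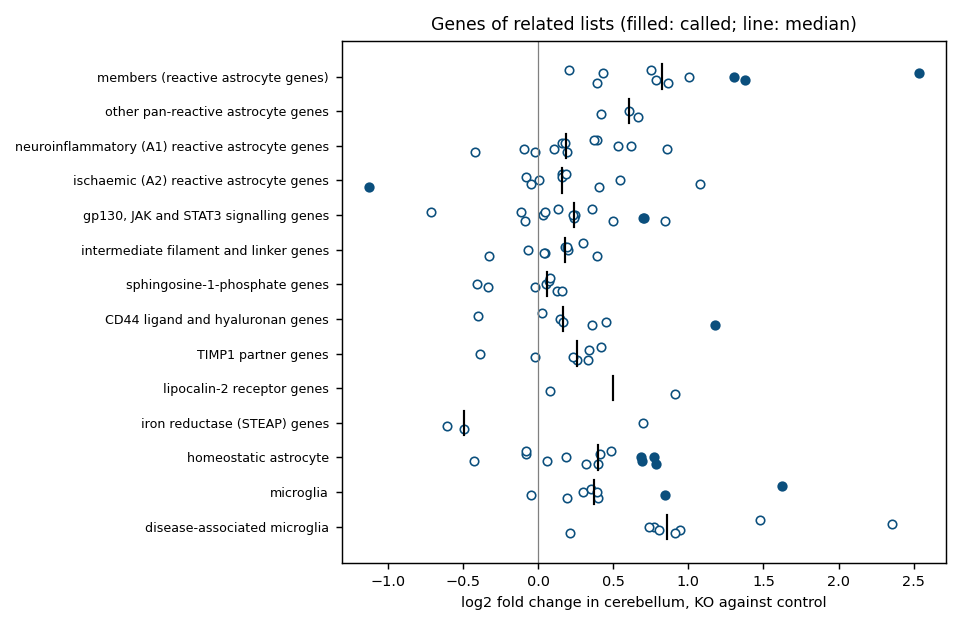
Log2 fold change in cerebellum, KO against control (x axis), of each tested gene of the related and glial lists (rows); vertical bars are list medians and filled points were called. The 10 reactive astrocyte genes have a median of 0.82, the A1 and A2 lists 0.19 and 0.16, and the homeostatic astrocyte list 0.40.

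Markers of other cells moved in the same cerebella, and their part in the reactive astrocyte result was not tested. The summed level of 13 homeostatic astrocyte genes was 7436 to 8115 CPM in control cerebella and 9062 to 9425 CPM in KO cerebella, with no overlap. In that list 4 of 13 were called higher (Aqp4, Gja1, Gjb6 and Glul, at log2 0.69, 0.78, 0.69 and 0.77), against 0.514% of all tested genes. Of the 13, 10 were positive and the median was 0.40, where 50.2% of all tested genes were positive. In cortex the sum was 5502 to 7303 CPM in controls and 7877 to 8402 CPM in KO mice. There 12 of 13 were positive, against 50.2% of all tested genes. Of all marker genes tested in cortex 0 of 97 were called by edgeR and 0 by DESeq2, and 26 had an unadjusted p under 0.05, as did 1139 of all 19202 genes tested. Of the Bergmann glia genes 1 of 5 was called in cerebellum, Hopx, at log2 -0.60. Their summed level was 901 to 1036 CPM in control cerebella and 845 to 892 CPM in KO cerebella, lower with no overlap. Only 1 of the 5 was positive, the median was -0.38, and 3 had an unadjusted p under 0.05 (edgeR). All 8 Purkinje cell genes were called lower, as were 1.04% of all tested genes, with a median of -1.19, and their sum fell from between 8658 and 10341 CPM in controls to 4360 and 4491 CPM. Microglial genes summed to 164 to 183 CPM in controls and 236 to 246 CPM in KO cerebella, and 2 of 8 were called higher, against the same 0.514%. Genes of disease-associated microglia summed to 61.6 to 72.9 CPM in controls and 88.9 to 94.2 CPM in KO cerebella, and all 8 were positive with a median of 0.86, of which DESeq2 called Cd68, Trem2 and Tyrobp and edgeR none, with an unadjusted p under 0.05 for 7. Fibroblast genes, whose cells make Vim, Cd44 and Timp1 too, ranged from 111 to 276 CPM in controls and from 222 to 336 CPM in KO cerebella, and endothelial genes from 181 to 225 and from 236 to 237 CPM. Choroid plexus genes were at 1189 to 3332 CPM in the control cerebella and at 65.6 CPM in KO 1 and 2851 CPM in KO 2, so the KO libraries differed in these genes while their Gfap levels were 505 and 496 CPM.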

How the data were processed

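Bulk RNA-Seq of cerebellum and cerebral cortex from 5 mice gave 10 libraries, 1 per mouse and tissue. The deposited tables hold counts of read pairs by gene with no normalization, which the authors made by aligning reads to GRCm38 with STAR and counting over exons with featureCounts 2.0.1, without strand and without pairs that map to several places; GENCODE M21 supplied the symbols. Because strand was not used, reads of overlapping genes cannot be told apart. Of the 10 genes only S1pr3 shares exonic bases with another gene (1.01%). Of 81881 entries the 55536 mouse genes were used, and the other entries, with 0.160% to 0.926% of the counts of a library, were left out.

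Within a tissue, KO was tested against control by the quasi-likelihood method of edgeR 4.0.16 in R 4.3.3 (filterByExpr with a count minimum of 10, TMM scaling, Benjamini-Hochberg adjustment over all genes tested). The interaction and region contrasts came from 1 fit of all 10 libraries. An interaction was called on its adjusted p alone, and the other contrasts also needed an absolute log2 fold change over 0.5. DESeq2, which the study ran in version 1.38.3, was run here in version 1.42.0 as an alternative, beside RLE scaling, no filter, a replicate block and leaving out each library. Scaling by library totals was added after seeing the data. The biological coefficient of variation was 0.121 in cerebellum, 0.141 in cortex and 0.134 in the joint fit. With 2 KO mice the spread of that group rests on a single difference. Scripts were tested on simulated data.

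Mouse numbers in the labels pair the tissues. Deviations of the same mouse from its group means correlated across genes at r of 0.198 to 0.420, those of different mice at -0.331 to 0.172. This contrast is partly fixed by the subtraction of group means, since with 2 KO mice the -0.331 is the same-mouse 0.331 with its sign turned. Controls 1 and 3 reached 0.171 and 0.172 with each other, close to the lowest same-mouse value. The members and lists were chosen with earlier results of these data known, and Gfap is among the genes the study names on these samples. Named genes are the 10 members, Snx14, related genes called in any of the KO contrasts or, in lists without a call, the 2 with the highest mean CPM, and the 5 patterns nearest to Gfap and Serpina3n. Hopx, Ngp, Ltf, Fbln5, Cd68, Trem2, Tyrobp and the 4 homeostatic astrocyte genes called higher were named after their values were seen. Promoter windows were taken from RefSeq for all 10 genes.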

Additional observations from a re-analysis of the deposited data

How the results depend on the processing

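In cerebellum 3 of the 10 genes were called, against 5 with no filter on low counts (Aspg and Cd44 added), 3 with DESeq2 (Cd44 in place of Lcn2, which had no adjusted p) and 2 with the replicate number as a replicate block (Lcn2 at an adjusted p of 0.102). Leaving out 1 library gave 1 to 4 calls: 1 without KO 1 and 1 without KO 2, Gfap in both. Control and KO numbers do not mark shared animals (r of deviations -0.0496 and 0.00438 in cerebellum, 0.0714 and 0.130 in cortex), and the block called 181 genes where 302 were called without it. In cortex 0 of the 10 genes were called in every setting run. For the interaction the count of 0 became 2 with DESeq2, 2 with no filter and 1 with the mouse as a replicate block, and lay between 0 and 1 with 1 library left out. The mouse block changed no other call among the 10 genes. The region count of 5 lay between 4 and 5 with 1 library left out and was 5 in the other settings. Under library totals alone the median region difference of all genes was 0.12 instead of 0.02, under DESeq2 it was -0.15, and the 5 calls kept their directions. Signs turned, with no call on either side, for 6 log2 values with 1 library left out. In cortex these were Cd44 (range -0.72 to 0.10, positive without KO 2), S1pr3 (-0.0039 to 0.39, negative without KO 2), Aspg (-0.26 to 0.47, negative without KO 2) and Timp1 (-0.39 to 0.17, positive without control 3, and 0.17 with the replicate block). In the interaction they were Steap4 (-1.16 to 0.090, positive without cerebellum control 1 and, at 0.08, without cortex KO 2) and S1pr3 (-0.039 to 0.42, negative without cerebellum KO 2). Over all genes the cerebellum count was 302, 427 with DESeq2, 842 with no filter and 133 to 400 with 1 library left out. The cortex count was 0, 49 with DESeq2, 380 with no filter, 3 with the replicate block and 0 to 98 with 1 library left out. The interaction count was 21, 219 with DESeq2, 599 with no filter, 128 with the mouse block and 3 to 117 with 1 library left out. edgeR weighs a spread shared among genes by its prior degrees of freedom. With the filter these were 5.41 in cerebellum, 4.64 in cortex and 4.78 in the joint fit. With no filter they were infinite in each fit, so a gene's own spread no longer counted in its test. The lowest adjusted p-values in the ranges given for Gfap, Serpina3n, Lcn2 and Cd44 in the KO contrasts came from those fits. The causes of these shifts were not tested. Lcn2, Steap4 and Timp1, with few counts per library, limit what this depth can show.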
